A study of Macaca fascicularis with 44 samples.

Results

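HOX genes are described here in single cells of cynomolgus monkey embryos grown in vitro from the blastocyst stage. The members are all genes of the deposited count table whose symbol is HOXA, HOXB, HOXC or HOXD followed by a number only. This gave 37 of 21834 genes, of which 11 are in the HOXA cluster, 10 in HOXB, 9 in HOXC and 7 in HOXD. HOXD8 and HOXD11 are not analysed here. In the RefSeq gene table of the species, which names all 37, the spans of 17 overlap another HOX gene; the strand setting of the counting is unknown here, so the split of counts between such neighbours is uncertain. For description the members were also put in 3 bands by paralog number, anterior (1 to 3), central (4 to 8) and posterior (9 to 13).

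HOX genes encode homeodomain transcription factors that give cells along the head-to-tail axis their regional identity. Genes of a cluster lie in the order of their paralog numbers, and low-numbered members are known to start earlier and reach further to the head (hindbrain and pharynx) than high-numbered members, which act in trunk, tail, limbs and genital tract. Members with the same number in different clusters are paralogs with partly shared roles. PBX and MEIS proteins bind DNA with HOX proteins, and CDX factors, WNT, FGF and retinoic acid are known inputs to HOX transcription.

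The study profiled 3682 single cells in 44 libraries from 9 embryos, called E16-1, E16-2, E18-1, E20-1, E21-1, E22-1, E23-1, E24-1 and E25-1 after the embryonic day and a number. All embryos were wild type, came from oocytes injected with sperm, and were cultured from expanded blastocysts; extraembryonic tissues were taken off before the cells were dissociated. The libraries of a day come from 1 embryo, except at E16, where 4 libraries come from E16-1 and 3 from E16-2. A difference between days or embryos therefore cannot be told apart from a difference between individual embryos, which the annotation gives as both sexes, and every p-value below measures only the spread between libraries, which share an embryo. The title and the time label name the same day for 42 libraries with 3533 cells; the other 2 libraries enter pooled levels but no comparison of days.

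The authors' annotation puts the cells in 12 classes and 26 fine clusters. The classes were made from the expression of the same cells, so the tests between classes describe them and are no test against chance. Levels are given in CPM, the usual scaling of a count to the total count of the pooled cells. The table comes without gene lengths, so a level is compared across classes within a gene or within a fixed group of genes, not between genes. Intervals of pooled CPM are exact 95% Poisson intervals and cover counting error only. The median cell held 110458 counts (871 to 2831708), but the 196 EVT cells of cluster 7 had a median of 10199.5. The total per library ranged from 4393315 to 30568931 counts (median 11824730, 42 libraries). All 3682 cell names were distinct.

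The class names were set against marker lists. The primitive streak list (7 genes) summed to 1289 CPM in PS and derivative. It was led there by MIXL1 (396 CPM), LHX1 (275 CPM), CER1 (264 CPM) and MESP1 (241 CPM), while TBXT stood at 2.66 CPM. The list summed to 1325 CPM in Endoderm, where CER1 alone had 1182 CPM. In Neural ectoderm NES (66.5 CPM), ZIC1 (53.6 CPM), SOX2 (23.96 CPM) and PAX6 (7.84 CPM) of the neural list were detected. SOX1, SOX3, SIX3 and LHX2 of that list were at 0, and PAX3 had 69.4 CPM. Of the neural crest list, this class had 100 CPM of SNAI2, 57.6 of TFAP2B, 10.8 of SOX10 (the highest of all classes) and 0.570 of FOXD3. The neural crest list summed highest in EXMC (246 CPM), where SNAI2 had 245 CPM. The paraxial mesoderm list, which includes PAX3, summed to 99.0 CPM in Neural ectoderm, most of it PAX3 and DLL1 (20.4 CPM). The class called Mesoderm had 9.11 CPM of PAX3, 4.19 of MEOX1, 2.36 of DLL1, 0.16 of TBX6 and of TCF15 and 0 of MSGN1. Blood cells had the highest sum of the blood list (98.5 CPM, 5 genes measured), from PTPRC (68.2 CPM) and TAL1 (30.2 CPM), with HBZ, ALAS2 and GATA1 at 0, and the highest sum of the endothelial list (2425 CPM). The names are therefore used below only as the authors' labels.

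HOX counts were spread unevenly over the classes. The summed HOX level was 1448 CPM (95% interval 1434 to 1462, 228 cells) in PS and derivative, 991 (968 to 1015, 59 cells) in Neural ectoderm and 738 (727 to 748, 231 cells) in Mesoderm. It was 448 (429 to 468, 17 cells) in Blood cells, 430 (425 to 435, 474 cells) in Extraembryonic Mesoderm and 410 (400 to 421, 121 cells) in Non-neural ectoderm. Blood cells, Extraembryonic Mesoderm and Non-neural ectoderm lie close to each other in this order, and the lowest part of it held the 3 trophoblast classes. EPI had 230 CPM (79 cells), EXMC 222 CPM (1185 cells), Endoderm 129 CPM (62 cells), STB 59.9 CPM (111 cells), EVT 52.2 CPM (566 cells) and CTB 19.2 CPM (549 cells).

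Some of these pooled values rest on few cells or on 1 embryo. A single cell gave 43.5% of the HOX counts of STB, 32.7% of those of EPI and 13.7% of those of Neural ectoderm. In EPI the 8 cells of E16-1 had 1269 CPM and the 5 cells of E16-2 had 582 CPM, against 12.3 CPM in E21-1, 19.6 in E18-1 and 24.3 in E25-1. Without E16-1 the pooled EPI level was 55.7 CPM. Neural ectoderm came almost only from E22-1 (57 of 59 cells), and without that embryo its 2 remaining cells gave 288 CPM. Without E22-1 Mesoderm stood at 457 CPM, and without E16-1 PS and derivative stood at 614 CPM. Without E22-1 Non-neural ectoderm stood at 228 CPM.

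The order of the classes was similar when depth was made equal. Each cell with at least 5000 counts (3574 cells) was thinned to 5000 counts (72 EVT, 13 EXMC, 8 Mesoderm, 5 PS and derivative and at most 4 cells of any other class were left out), and the share of cells with a HOX count was 90.1% in PS and derivative, 89.2% in Mesoderm, 86.4% in Neural ectoderm and 80.6% in Extraembryonic Mesoderm. It was 66.9% in Non-neural ectoderm, 57.5% in EXMC, 45.9% in Endoderm and 24.1% in EPI, and 76.5% of the 17 Blood cells. The lowest shares were those of the trophoblast classes, 6.97% in CTB, 9.09% in STB and 19.6% in EVT; how much of them is free RNA of other cells was not tested. Before thinning, the share was 54.6% in CTB, 55.1% in EVT and 98.2% in PS and derivative, at median depths of 169543, 71638 and 98378.5 counts. A thinned cell held counts of 4.45 HOX genes on average in PS and derivative, 2.98 in Neural ectoderm, 2.50 in Mesoderm, 0.837 in EXMC and 0.0789 in CTB.

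**Figure D1:**
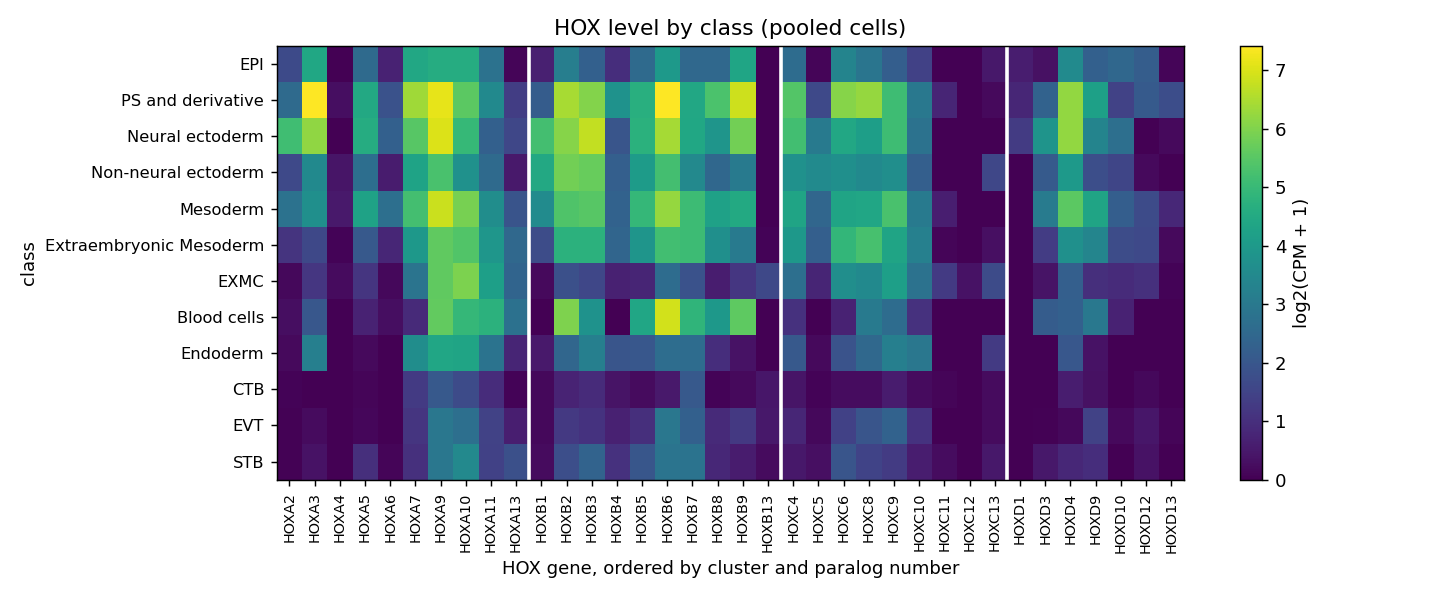
Pooled CPM of 36 HOX genes (columns, by cluster and paralog number) in the 12 classes. Colour compares a gene across classes: 13 of these genes are highest in PS and derivative, and the 6 genes highest in EXMC all have paralog numbers from 9 to 13.

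Members with low and high paralog numbers peaked in different classes. PS and derivative had the highest pooled level of 14 members, Neural ectoderm of 7, Mesoderm and EXMC of 6 each, Extraembryonic Mesoderm of 2, and EPI and Non-neural ectoderm of 1 each. Of the 7 members highest in Neural ectoderm, 5 were anterior: HOXA2, HOXB1, HOXB3, HOXD1 and HOXD3. All 6 members highest in EXMC were posterior: HOXA10, HOXA11, HOXB13, HOXC11, HOXC12 and HOXC13. HOXA13 and HOXC10, highest in Extraembryonic Mesoderm, were posterior too. HOXA6 and HOXB7 were highest in Mesoderm (5.58 and 33.1 CPM), HOXD10 in Neural ectoderm (5.56 CPM), HOXD12 in EPI (3.55 CPM) and HOXC5 in Non-neural ectoderm (10.7 CPM). For 9 members, HOXA4, HOXA5, HOXA13, HOXB7, HOXD1, HOXD4, HOXD9, HOXD10 and HOXD12, the second class lay inside the counting interval of the first, so their highest class is not settled. The interval leaves out the spread between embryos, so the highest class of the other members is not settled by it either. HOXA10, at 60.8 CPM in EXMC, lay between 46.4 and 98.2 CPM in the Mesoderm libraries of E22-1. No anterior member was highest in an extraembryonic class.

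To describe 1 member of each cluster in full, the one with the largest pooled CPM was taken; gene lengths are unknown, so this choice ranks no genes. All 4 were highest in PS and derivative, which the choice by largest CPM favours, since this class had the highest HOX sum. HOXA3, known for its role in pharyngeal pouch and thymus formation, had 170 CPM there and 71.9 in Neural ectoderm. HOXB6, a trunk gene also used in limb and blood, had 170 CPM there and 84.7 in Neural ectoderm. HOXC8, which acts in brachial and thoracic segments, had 74.3 CPM there and 37.5 in Extraembryonic Mesoderm. For HOXD4, a gene of the head-trunk boundary, the level was 74.0 CPM (70.9 to 77.2) there and 72.7 in Neural ectoderm, a gap inside the counting interval. HOXA9, known from blood stem cells and posterior trunk, was close in PS and derivative (141 CPM, 137 to 146) and Neural ectoderm (129 CPM).

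Anterior members separated the classes further. HOXA2, the selector gene of the second pharyngeal arch, had 34.5 CPM (30.3 to 39.1) in Neural ectoderm and 5.97 in Mesoderm. HOXB1, which marks the fourth rhombomere of the hindbrain, had 35.8 CPM (31.5 to 40.5) in Neural ectoderm, 21.2 in Non-neural ectoderm and 3.46 in PS and derivative. HOXD1, a paralog of HOXB1, reached 1.43 CPM at most. HOXB3 had 105 CPM (97.4 to 113) in Neural ectoderm and 64.8 in PS and derivative, and HOXD3 had 13.3 and 3.99 CPM.

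Posterior members had their highest levels in several classes. HOXA10, which acts in lumbar segments and uterus, had 60.8 CPM (59.6 to 62.0) in EXMC and 58.2 in Mesoderm. HOXA11, a gene of limb and uterus, had 17.4 CPM (16.8 to 18.04) in EXMC and 13.9 in Extraembryonic Mesoderm. HOXB13, known from the prostate and tail, had 2.04 CPM (1.83 to 2.27) in EXMC and 0.388 in EVT, and was at 0 in 7 classes with PS and derivative, Mesoderm and both ectoderm classes among them. HOXC12 had 0.294 CPM (0.217 to 0.390) in EXMC, but 1 cell gave 66.7% of its 48 counts there, so its place among the members highest in EXMC rests on that cell. HOXA4 and HOXC12 stayed under 1 CPM in every class, and HOXD1, HOXC11, HOXB13, HOXC13 and HOXD13 under 3 CPM.

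**Figure D2:**
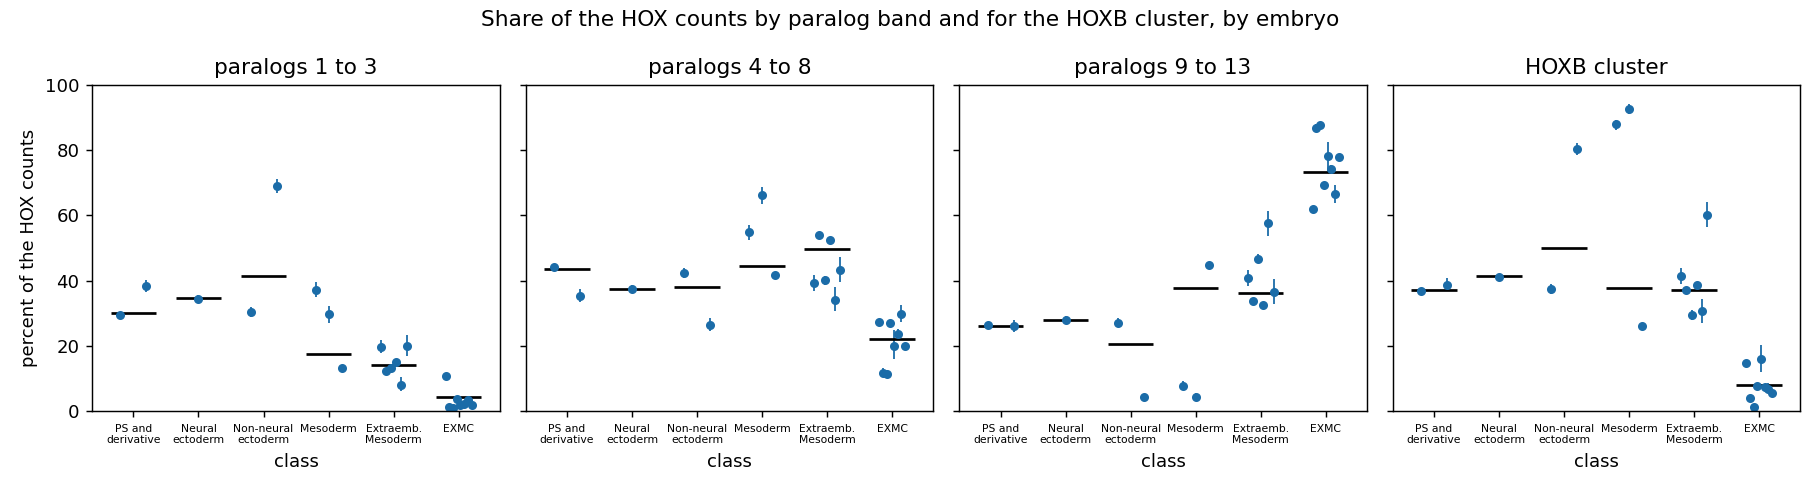
Percent of the HOX counts of a class in each paralog band and in the HOXB cluster, for embryos with at least 10 cells of the class (points, with exact binomial 95% intervals of counting error) and for all cells of the class (line). EXMC lies at 62.0 to 87.6% posterior in 8 embryos, and Mesoderm and Non-neural ectoderm split between embryos.

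The share of each band in the HOX counts showed the same contrast. Such shares mix genes of unequal length and serve only to compare classes. In EXMC 73.3% of the HOX counts were posterior (62.0 to 87.6% in 8 embryos) and 4.41% anterior. In Extraembryonic Mesoderm 36.3% were posterior (32.6 to 57.7% in 6 embryos) and 49.6% central. The ranges of embryos did not overlap, and the highest Extraembryonic Mesoderm value came from the 14 cells of E23-1. Anterior members gave 41.4% of the HOX counts in Non-neural ectoderm, 34.6% in Neural ectoderm, 30.2% in PS and derivative and 17.6% in Mesoderm. E16-2 stood apart within EXMC, with 10.8% anterior against 0.958 to 3.86% in the other 7 embryos.

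The 4 clusters also took unequal shares. HOXB gave 7.92% of the HOX counts in EXMC (1.24 to 15.9% in 8 embryos) and 37.2% in Extraembryonic Mesoderm (29.5 to 60.3% in 6 embryos). HOXA gave 64.0% in EXMC and 30.2% in Extraembryonic Mesoderm. HOXB took 67.6% in Blood cells, where HOXC and HOXD stood at 15.2 and 14.8 CPM, and 49.9% in Non-neural ectoderm. HOXD gave 10.7% in Mesoderm, 10.3% in Neural ectoderm and 10.2% in EPI.

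Fine clusters within a class differed as well. Extraembryonic Mesoderm held cluster 8 with 568.1 CPM of HOX counts (194 cells), cluster 5 with 367 CPM (206 cells) and cluster 22 with 321 CPM (74 cells). HOXB made up 251 CPM in cluster 8 and 79.9 CPM in cluster 5, while HOXA made up 103 and 199 CPM. The posterior band was at 219 CPM in cluster 5 and 155 CPM in cluster 8, and the central band at 119 and 311 CPM. As a share of HOX counts the posterior band gave 59.8% in cluster 5, 27.2% in cluster 8 and 25.2% in cluster 22. Cluster 5 was thus close to EXMC cluster 6 (60.7%), also in HOXA (54.2% and 54.4%), while the other EXMC clusters had 73.2 to 82.1% posterior. The lower posterior share of the whole class comes from clusters 8 and 22. The EXMC clusters were more alike, at 166 to 297 CPM, with the anterior band between 2.88 and 6.05 CPM in 6 of the 7 and at 32.4 CPM in cluster 6. Cells of E16-2 made up 91.1% of cluster 6, those of E20-1 95.9% of cluster 22 and those of E22-1 64.4% of cluster 8, so differences between these clusters cannot be told apart from differences between embryos.

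Each class was then set against the mean of the other tested classes, on sums of at least 10 cells per library and class, with the library as a block. The test was edgeR's quasi-likelihood test, with Benjamini-Hochberg adjustment over 15306 genes and 8 classes. It covered 33 members; HOXA4, HOXC12, HOXD1 and HOXD13 were too low. A member could pass the filter on low counts through the class where it is high, so the counts describe the tested members only.

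The Mesoderm contrast rests on 7 libraries with 181 cells, 6 of E22-1 and 1 of E21-1. In Mesoderm 18 of 33 tested members were higher and 0 lower, where 4.89% of all genes were higher and 1.85% lower. HOXA5, a gene of the cervical-thoracic border and lung, led with a log2 difference of 3.26 ± 0.74 (SE; edgeR adjusted p = 0.00113), followed by HOXC9 (3.07 ± 0.60) and HOXB5 (2.80 ± 0.46); HOXA counts of this class were nearly all in E22-1, as its libraries show further on. In Extraembryonic Mesoderm 17 members were higher and 1 lower, against 14.3% and 6.55% of all genes. HOXC8 led there (3.11 ± 0.24, edgeR adjusted p = 1.26e-18). DESeq2 gave 8 higher and 0 lower in Mesoderm.

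EXMC was the class in which members passed in both directions in number. HOXA9, HOXA10, HOXA11, HOXC6, HOXC8, HOXC9 and HOXC10 were higher, 7 of 33, against 15.3% of all genes. The count of higher members is thus not far from the share of all genes. HOXB1, HOXB2, HOXB3, HOXB4, HOXB5, HOXB6, HOXB7 and HOXD9 were lower, 8 of 33, against 8.5% of all genes. Every tested HOXB member from HOXB1 to HOXB7 was thus lower, from -4.06 ± 0.85 for HOXB1 to -2.002 ± 0.352 for HOXB6. HOXC9, a thoracic gene, was the highest of the others (3.17 ± 0.43, edgeR adjusted p = 3.61e-09). By band the median difference was -1.59 over 7 anterior members, 0.33 over 13 central ones and 1.63 over 13 posterior ones, beside 0.10 over all genes. With sums of at least 20 cells 6 members were higher and 1 lower in EXMC, and HOXB4 lost its call without library 10 (adjusted p = 0.150).

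The Neural ectoderm contrast rests on 3 libraries with 40 cells of E22-1, and the Non-neural one on 6 libraries with 69 cells of 2 embryos. In Neural ectoderm 8 of 33 members were higher (3.13% of all genes) and 0 lower (2.32%): HOXA2, HOXA9, HOXB1, HOXB2, HOXB3, HOXB5, HOXB9 and HOXC4. HOXA2 stood at 4.96 ± 1.16 (edgeR adjusted p = 0.00225) and HOXB1 at 4.35 ± 0.77 (2.08e-05). The band medians were 2.82 anterior, 1.32 central and 0.80 posterior. With DESeq2, 3 members were higher and 0 lower, and HOXC4 lost its edgeR call without library 10, 19, 21 or 34 (adjusted p up to 0.0712). Non-neural ectoderm had 7 higher members (5.49% of all genes), among them HOXB1, HOXB2, HOXB3, HOXB5, HOXB6 and HOXC5, and 1 lower (1.69% of all genes), HOXA10 (-2.52 ± 0.92, edgeR adjusted p = 0.0471). With RLE size factors 7 were higher and 0 lower, and DESeq2 gave 6 and 5. Leaving out library 10 took its count from 8 to 4 and leaving out library 19 to 5; HOXA10, HOXB6 and HOXC5 were among the calls lost (adjusted p up to 0.237). Its band medians were 2.26 anterior, 0.70 central and -2.24 posterior.

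PS and derivative, the class with the highest pooled levels, had 1 higher member, HOXD4 (3.04 ± 0.83, edgeR adjusted p = 0.00518), and 0 lower, against 1.13% and 1.76% of all genes; 6 members had an unadjusted p under 0.05. Only 3 libraries of E16-2, with 37 cells, hold this class beside another and so inform this contrast, and E16-2 is the embryo with the lower HOX levels in this class. E16-2 held no cells of Mesoderm or of either ectoderm class, so the contrast reaches those classes only through library terms of other embryos. HOXD4 had 12.4 CPM in this class of E16-2, below Neural ectoderm (74.7 CPM) and the Mesoderm libraries (43.7 to 69.5 CPM) of E22-1. The call does not place HOXD4 above those classes. Leaving out library 32 gave 3 members, and DESeq2 gave 1 higher and 1 lower. CTB and EVT had lower members only, and STB was not tested: 19 of 33 in CTB (13.7% of all genes) and 9 of 33 in EVT (11.4% of all genes), where 15.5% and 14.3% of all genes were higher. HOXC8 was at -5.35 ± 0.59 in CTB and HOXD4 at -4.93 ± 0.76 in EVT.

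Embryo E22-1 held 4 HOX-rich classes side by side in its 6 libraries, and this allowed pairs of classes to be compared within libraries. In sums of at least 5 cells, the HOX total had a median of 1071 CPM in Neural ectoderm (593 to 1456, 5 libraries), 825 in Mesoderm (749 to 1032, 6 libraries), 685 in Non-neural ectoderm (376 to 792, 6 libraries) and 567.5 in Extraembryonic Mesoderm (491 to 663, 6 libraries). Mesoderm and Extraembryonic Mesoderm did not overlap. Neural ectoderm overlapped with Mesoderm and with Non-neural ectoderm. The anterior sum was 193 to 441 CPM in Neural ectoderm and 88.6 to 136 in Mesoderm, with no overlap.

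**Figure D3:**
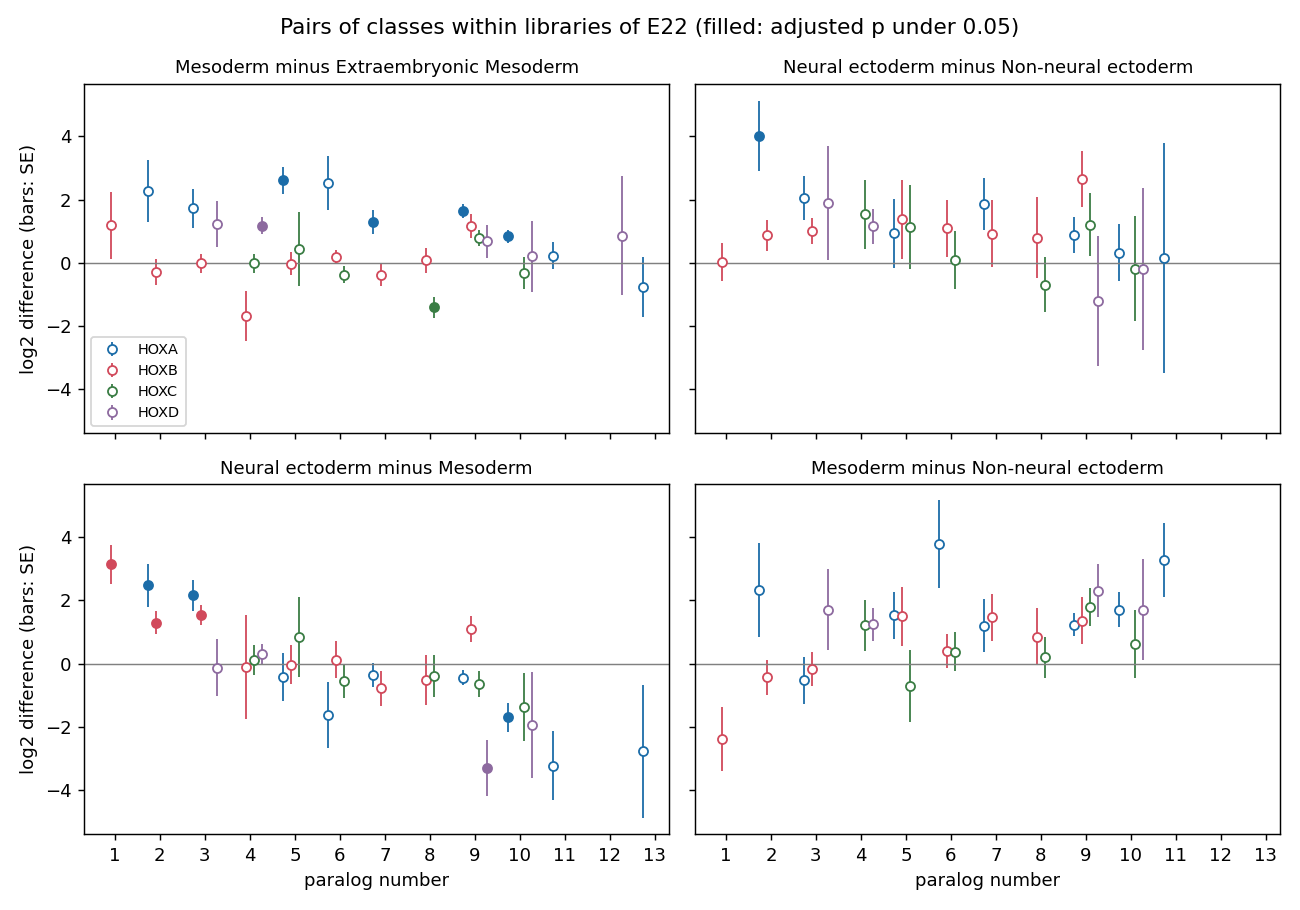
Log2 difference (± SE) of tested HOX genes (1 left out) by paralog number for the 4 pairs of classes within libraries of E22. Filled points passed the adjusted p threshold of 0.05: in Neural ectoderm against Mesoderm the 5 higher members have numbers 1 to 3 and the 2 lower ones 9 and 10.

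Mesoderm exceeded Extraembryonic Mesoderm mainly in HOXA genes. HOXA9 lay between 111 and 278 CPM in Mesoderm (median 165, 6 libraries) and between 29.7 and 90.02 in Extraembryonic Mesoderm (median 54.5). HOXA5 lay between 7.67 and 74.3 CPM (median 23.2) and between 1.79 and 8.14 (median 4.42). The HOXA9 ranges did not overlap, and those of HOXA5 overlapped by 1 library on each side. HOXD4 lay between 43.7 and 69.5 CPM (median 60.8) in Mesoderm and between 16.4 and 41.7 (median 22.4) in Extraembryonic Mesoderm. HOXC8 went the other way, at 9.20 to 40.3 CPM (median 17.99) and 24.6 to 66.2 (median 54.6). HOXD4 ranges were apart, while HOXC8 was lower in Mesoderm in 5 of 6 libraries.

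In edgeR's quasi-likelihood test with the library as a block, 5 of 30 tested members were higher in Mesoderm and 1 lower, where 4.67% of 12053 genes were higher and 7.0% lower. HOXA5 stood at 2.61 ± 0.42 (log2, SE; edgeR adjusted p = 0.000452, higher in 6 of 6 libraries) and HOXA9 at 1.64 ± 0.22 (4.66e-05, 6 of 6). HOXA7 (1.30 ± 0.37, 0.0454, 5 of 6), HOXD4 (1.18 ± 0.26, 0.00753, 6 of 6) and HOXA10 (0.84 ± 0.21, 0.0212, 6 of 6) followed. HOXC8 stood at -1.41 ± 0.33 (edgeR adjusted p = 0.0120, higher in 1 of 6). By cluster, 4 of 10 HOXA, 0 of 9 HOXB, 0 of 6 HOXC and 1 of 5 HOXD members were higher. The calls of HOXA7 and HOXA10 were lost without library 28, 29 or 32 (HOXA7 also without 30), with adjusted p up to 0.187 and 0.0946, and that of HOXC8 without library 31 (0.0612). DESeq2 gave 10 higher and 1 lower.

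Neural ectoderm differed from Mesoderm by paralog number. HOXB1 had 39.7, 10.3, 41.5, 16.6 and 75.6 CPM in the 5 Neural ectoderm libraries and 1.10 to 14.6 (median 4.33) in Mesoderm. HOXB3 had 125, 114, 89.0, 72.5 and 95.1 CPM, against 22.4 to 49.999 (median 37.9). HOXB3 did not overlap, and HOXB1 overlapped through the lowest Neural ectoderm library. HOXA3 had 21.98, 181, 47.0, 31.1 and 131 CPM, against 4.29 to 29.6 (median 13.8). HOXB2, a hindbrain gene downstream of HOXB1, had 103, 57.3, 64.4, 53.9 and 55.1 CPM, against 17.6 to 35.3 (median 24.7). Again the HOXB2 ranges were apart and HOXA3 overlapped at its lowest library.

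Of 9 tested posterior members 1 had a positive log2 difference in this pair. The 2 past the threshold, HOXD9 and HOXA10, were lower in Neural ectoderm. The posterior sums overlapped, at 132 to 410 CPM in Neural ectoderm and 297 to 457 in Mesoderm. HOXB9 had 15.6, 95.8, 74.4, 66.3 and 56.9 CPM in Neural ectoderm, against 18.4 to 45.9 in Mesoderm. HOXD9, a gene of limb and lumbar trunk, had 0.709, 2.82, 5.93, 0 and 1.78 CPM in Neural ectoderm and 14.3 to 33.8 (median 20.5) in Mesoderm. HOXA10 had 37.6, 17.8, 48.4, 24.9 and 5.33 CPM, against 46.4 to 98.2 (median 76.9). HOXD9 ranges did not overlap and HOXA10 overlapped through 1 library. HOXA2 had 47.5, 47.9, 43.8, 6.21 and 21.3 CPM in Neural ectoderm and 0.714 to 16.6 (median 5.18) in Mesoderm, with an overlap through the lowest Neural ectoderm library.

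In edgeR's quasi-likelihood test 5 of 29 members were higher in Neural ectoderm than in Mesoderm and 2 lower, where 1.43% of 10565 genes were higher and 2.3% lower. The higher ones were HOXB1 (3.14 ± 0.61, edgeR adjusted p = 0.00222), HOXA2 (2.48 ± 0.68, 0.0325), HOXA3 (2.16 ± 0.49, 0.00946), HOXB3 (1.53 ± 0.30, 0.00291) and HOXB2 (1.30 ± 0.36, 0.0363), each in 5 of 5 libraries. HOXD9 (-3.31 ± 0.88, 0.0274, higher in 0 of 5) and HOXA10 (-1.69 ± 0.46, 0.0301, 1 of 5) were lower. Thus 5 of 7 tested anterior members were higher (median log2 difference 1.53), 0 of 13 central ones passed (median -0.37), and 2 of 9 posterior ones were lower (median -1.69), beside a median of -0.11 over all genes. Without library 28 or 32 the count was 3, without 29 or 31 it was 4, and with at least 10 cells per sum it was 4. HOXB1 and HOXB3 stayed past the threshold without any 1 library; HOXA2 and HOXA10 lost it in 4 cases each (adjusted p up to 0.124 and 0.131), HOXB2 in 4 (0.201), HOXD9 in 3 (0.133) and HOXA3 without library 29 (0.0838).

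Neural and Non-neural ectoderm differed in HOXA2. It had the Neural ectoderm values given above and 0 to 14.6 CPM (median 0) in Non-neural ectoderm. In the libraries that hold both classes it was higher in Neural ectoderm in 5 of 5. In edgeR's quasi-likelihood test 1 of 26 tested members was higher and 1 lower, and HOXA2 was the higher one (4.01 ± 1.11, adjusted p = 0.0307), where 1.62% of 9748 genes were higher and 2.14% lower. HOXA2 lost the call without library 29, 30, 31 or 32 (adjusted p up to 0.127), and 1 member passed without library 29, 30, 31 or 32. DESeq2 gave 3 higher and 1 lower.

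No member passed between Mesoderm and Non-neural ectoderm, with 27 tested, 9 of them at an unadjusted p under 0.05, and 2.85% of 10576 genes past the threshold. DESeq2 gave 6 higher and 2 lower. Without library 33 edgeR gave 3 members and without library 28 it gave 1. All 8 tested posterior members were positive (median 1.71) and 2 of 7 anterior ones (median -0.43), beside 0.21 over all genes.

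The class Mesoderm had a different HOX profile in E22-1 than in E18-1 and E21-1. In E22-1 (170 cells) HOXA gave 44.8% of the HOX counts and HOXB 26.1%. HOXA gave 0.637% in E18-1 (26 cells) and 4.80% in E21-1 (23 cells), where HOXB gave 87.9% and 92.8%. The posterior band gave 44.9% in E22-1, 7.87% in E18-1 and 4.21% in E21-1.

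The libraries showed the same split. HOXA summed to 0, 0 and 11.1 CPM in the 3 libraries of E18-1 with at least 5 cells, to 5.25 and 5.34 in the 2 of E21-1, and to 337 to 531 (median 377) in the 6 of E22-1. HOXB summed to 259, 313 and 463 CPM in E18-1, 453 and 502 in E21-1, and 159 to 279 (median 223) in E22-1. HOXA ranges were far apart, and for HOXB only the lowest E18-1 library fell within the range of E22-1. HOXC summed to 11.05, 14.5 and 35.4 CPM in E18-1, 3.56 and 10.5 in E21-1 and 123 to 164 in E22-1. HOXD summed to 0, 4.82 and 133 CPM in E18-1, 0 and 5.34 in E21-1 and 73.4 to 124 in E22-1, so that 1 library of E18-1 reached past E22-1.

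Some other genes moved with this split. ALAS2, the haem synthesis enzyme of red cells, had 146 CPM in E18-1, 221 in E21-1 and 0.993 in E22-1. HAND1 had 580, 541 and 209 CPM, and KDR, a receptor of endothelial precursors, 55.6, 59.4 and 3.31. Other genes of the endothelial and extraembryonic mesoderm lists did not all follow. EGFL7, LUM and DCN were also lowest in E22-1 (52.6, 1276 and 939 CPM). POSTN, COL6A1, COL1A1 and GATA6 were highest there (487, 66.7, 927 and 11.1 CPM). PECAM1, CDH5, COL3A1, TCF21 and BST2 in E22-1 lay between E18-1 and E21-1, and GATA4 was at 0 in E18-1 and E22-1. The list of 8 paraxial mesoderm markers was at 0 in E18-1 and in E21-1, and in E22-1 3 of 8 were above 1 CPM (sum 23.8 CPM, PAX3 12.96, MEOX1 5.96). HBZ and PTPRC were at 0 in all 3 embryos, and GATA1 and TAL1 of the blood list were under 1 CPM. Whether the cells of this class are of 1 kind in the 3 embryos was not tested, and day, embryo and cell kind cannot be told apart here.

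**Figure D4:**
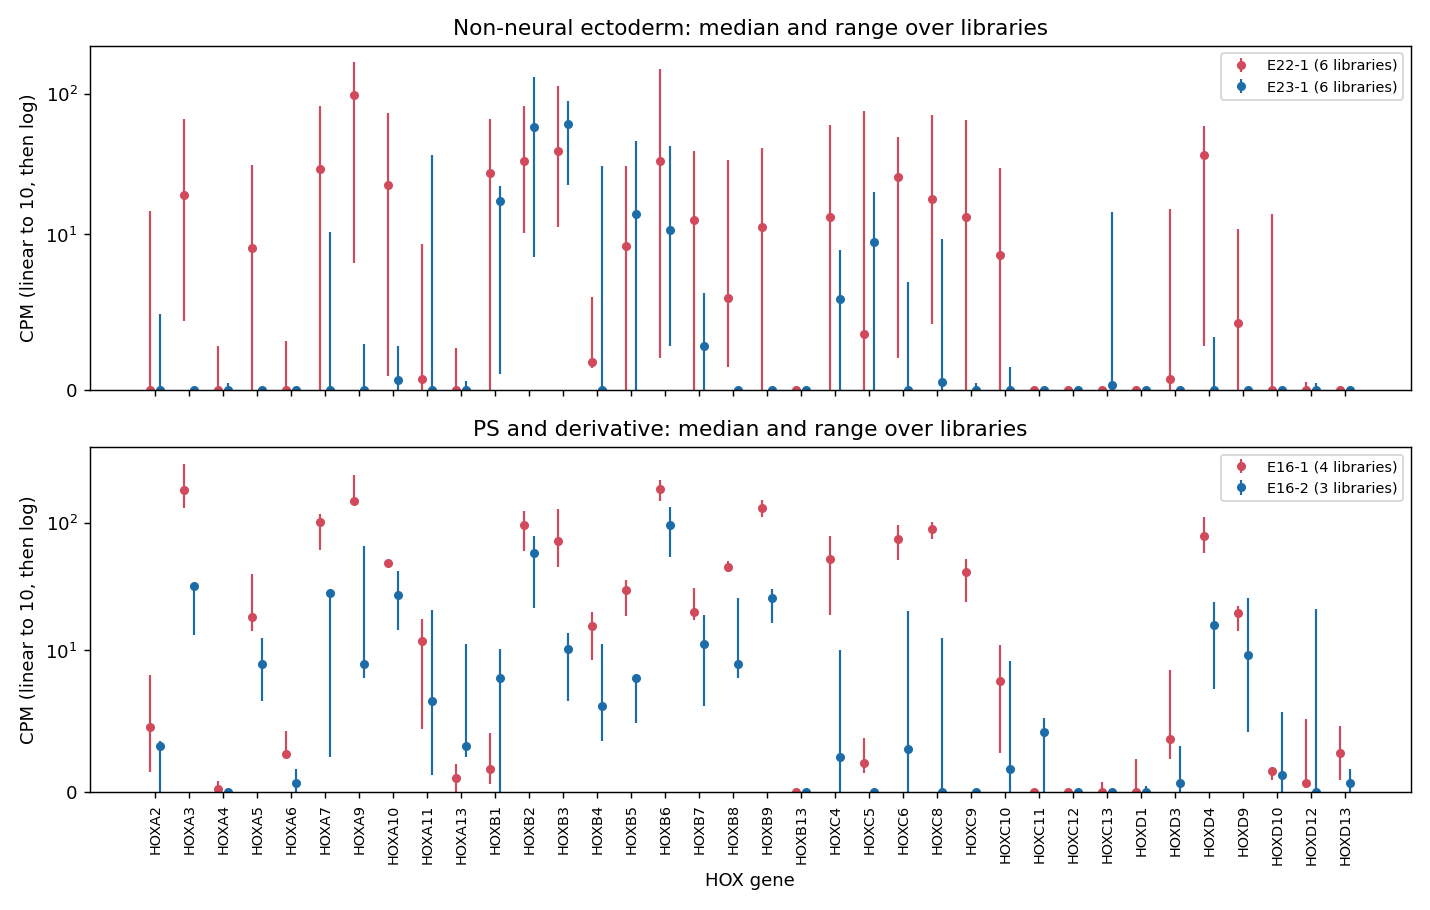
CPM of HOX genes in the same class of 2 embryos (median and range over libraries with at least 5 cells; the axis is linear to 10 and logarithmic above; 36 members are drawn). Of the members with at least 10 CPM in both embryos, 11 of 14 lie higher in E16-1 without overlap in PS and derivative, and 0 of 6 in Non-neural ectoderm.

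PS and derivative came from both E16 embryos, which allows embryos of the same day to be compared. The class summed to 1629 CPM in E16-1 (189 cells, 4 libraries) and 542 CPM in E16-2 (37 cells, 3 libraries). HOXC8 had 75.2, 99.9, 80.8 and 102 CPM in E16-1 and 0, 0 and 12.5 in E16-2. HOXC9 had 52.8, 35.2, 47.8 and 24.3 CPM and was at 0 in all 3 libraries of E16-2, where 3 counts of the pooled cells would be 0.630 CPM. Both genes were apart between the embryos.

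HOXA3 had 132, 295, 226 and 142 CPM in E16-1 and 13.3, 32.1 and 32.6 in E16-2. HOXB9, a thoracic gene, had 112, 152, 129 and 137 CPM and 16.3, 25.7 and 30.2. HOXD4 had 58.5, 69.4, 88.4 and 113 CPM and 15.7, 24.1 and 7.25. The 3 genes were again apart. HOXB2 overlapped, with 60.2, 101, 91.9 and 125 CPM in E16-1 and 58.1, 80.2 and 21.7 in E16-2.

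Among the 14 members with at least 10 CPM in both embryos, library ranges did not overlap for 11, all higher in E16-1, where 9.85% of 6619 genes were higher in E16-1 without overlap and 4.38% lower. With at least 10 CPM in either embryo it was 15 of 22 members, beside 12.2% higher and 4.93% lower of 7897 genes; 4 of these 15, such as HOXC8 and HOXC9, were counted only through E16-1, the embryo in which they are high. HOXC took 16.3% of the HOX counts in E16-1 and 6.20% in E16-2, the anterior band 29.5% and 38.5%. The primitive streak list summed to 1279 CPM in E16-1 and 1396 in E16-2, with 7 of 7 genes above 1 CPM in both. The trophoblast list was at 316 and 672 CPM and the extraembryonic mesoderm list at 930 and 1118 CPM; their part in the difference was not tested. Without library 3 of E16, 1 member was lower in E16-1.

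Non-neural ectoderm was held by E22-1 (47 cells) and E23-1 (68 cells), with 669 and 223 CPM of HOX counts. HOXA9 lay between 8.17 and 169 CPM (median 98.3) in the 6 libraries of E22-1 and between 0 and 2.94 (median 0) in the 6 of E23-1. HOXA3 lay between 4.44 and 66.8 CPM (median 19.1) and HOXB8 between 1.48 and 34.1 (median 5.92) in E22-1, and both were at 0 in every library of E23-1. For a gene at 0, 3 counts of the pooled E23-1 cells would be 0.370 CPM. These were the 3 of 20 members with at least 10 CPM in either embryo that did not overlap, beside 1.58% higher and 1.71% lower of 8353 genes, and all 3 were counted only through E22-1, the embryo in which they are high. Of the 6 members with at least 10 CPM in both embryos 0 were apart, where 1.53% of 6752 genes were higher in E22-1 and 1.57% lower. Without library 29 or 33 the count of 3 was 5.

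The anterior HOXB genes overlapped between the embryos, which does not show that they were alike. HOXB1 had 0 to 66.6 CPM (median 27.4) in E22-1 and 1.02 to 22.2 (median 17.2) in E23-1. HOXB2 had 10.2 to 82.1 CPM (median 33.3) in E22-1 and 8.54 to 132 (median 58.2) in E23-1, and HOXB3 had 11.4 to 114 (median 39.6) and 22.5 to 88.9 (median 61.5). The anterior band gave 30.4% of the HOX counts in E22-1 and 69.2% in E23-1, and HOXB gave 37.5% and 80.3%. The list of non-neural ectoderm markers had 6 of 6 genes above 1 CPM in both (772 and 693 CPM), and the trophoblast list summed to 742 and 1428 CPM, whose part in the difference was not tested.

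Extraembryonic Mesoderm was held by 6 embryos and EXMC by 8, with at least 10 cells each. Extraembryonic Mesoderm summed to 300 CPM in E18-1, 351 in E20-1, 352 in E21-1, 587 in E22-1, 473 in E23-1 (14 cells) and 346 in E25-1. EXMC summed to 291 CPM in E16-2, 178 in E18-1, 317 in E20-1, 207 in E21-1, 241 in E22-1 (15 cells), 210 in E23-1, 136 in E24-1 and 189 in E25-1. Extraembryonic Mesoderm was above EXMC in each of the 6 embryos that hold at least 10 cells of both. E20-1 had the smallest gap between them.

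Within EVT the HOX level depended on the fine cluster. Cluster 18 (87 cells) had 141 CPM and cluster 7 (196 cells) 92.5 CPM, and the other 3 EVT clusters had 33.01 to 46.8 CPM. The extraembryonic mesoderm marker list moved with these values, at 20401 CPM in cluster 18, 6264 in cluster 7 and 1052 to 1692 in the others; its part was not tested. Without the low-depth cluster 7 EVT had 49.3 CPM and a thinned share of 18.2%, and without clusters 7 and 18 it had 37.8 CPM. The posterior share of EVT was 45.7% with all cells, 44.2% without cluster 7 and 33.04% without both.

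**Figure D5:**
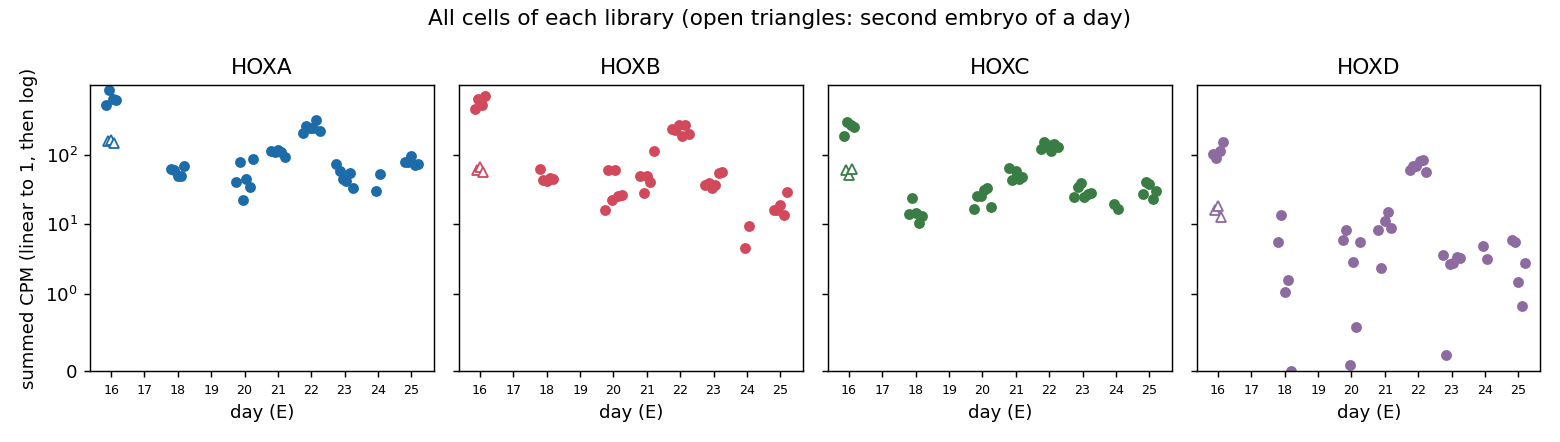
Summed CPM of each HOX cluster over all cells of a library, by day, for 42 libraries (open triangles are E16-2; the axis is linear to 1 and logarithmic above). The 4 libraries of E16-1 and the 6 of E22 lie above those of the other days in all clusters.

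Across days the libraries did not follow a steady course. Over all cells, the HOX sum was 1260 to 1854 CPM in the 4 libraries of E16-1 and 279 to 298 in the 3 of E16-2. It was 106 to 143 CPM at E18 (5 libraries), 70.2 to 172 at E20 (6), 181 to 261 at E21 (5), 596 to 799 at E22 (6), 106 to 140 at E23 (6), 58.6 and 81.1 at E24 (2) and 107 to 153 at E25 (5). E16-1 and E22 were thus the high libraries. They are also the embryos with the most cells of PS and derivative (189 in E16-1) and of Mesoderm and Neural ectoderm (170 and 57 in E22-1). In such sums, fewer cells of a class and less RNA per cell cannot be told apart.

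A slope over days fitted to these sums with edgeR's quasi-likelihood test passed for 12 of 31 tested members, all falling, where 10.2% of 13174 genes fell and 8.25% rose. The median slope was -0.22 log2 units per day, and 0.00 over all genes. HOXA3 fell by 0.68 ± 0.14 per day (edgeR adjusted p = 0.000611), HOXB9 by 0.55 ± 0.12 (0.00134), and HOXB8 and HOXA7 by 0.43 ± 0.10 each. By cluster 6 of 10 HOXB, 4 of 9 HOXA and 2 of 7 HOXC members fell. HOXA4, HOXA6, HOXC11, HOXC12, HOXD1 and HOXD13 were too low to test. Without E16, 0 of 28 tested members passed, 0 had an unadjusted p under 0.05, and the slope of HOXA3 was 0.45. With counts summed per embryo 0 passed and 9 had an unadjusted p under 0.05, and with the library code as a term 5 fell. No slope held without the E16 libraries.

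Within single classes edgeR's quasi-likelihood test passed no slope. It covered 28 members in Extraembryonic Mesoderm, 17 in EXMC, 6 in EVT and 5 in CTB, with 7, 2, 2 and 0 at an unadjusted p under 0.05; of all genes 2.12%, 1.73%, 6.88% and 3.36% passed. DESeq2 passed 1 member in each of Extraembryonic Mesoderm, EXMC and EVT. Leaving out library 35, 36 or 41 gave 1 member in Extraembryonic Mesoderm, and leaving out library 20, 35, 40, 41, 42 or 43 gave 1 in EVT. In Extraembryonic Mesoderm 25 of 28 slopes were positive, with a median of 0.31 against -0.01 over all genes. HOXB3 had 0.74 ± 0.22 (edgeR adjusted p = 0.0720) and HOXA3 had 1.67 ± 0.53 (adjusted p = 0.0947).

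Partners and regulators of HOX genes were read from 4 lists. Of 9 PBX, MEIS and PKNOX cofactors, all tested, MEIS1 (1.22 ± 0.24) and MEIS2 (0.67 ± 0.12) were higher in Mesoderm than in Extraembryonic Mesoderm of E22-1 and 0 were lower, beside 4.67% and 7.0% of all genes. Against the other classes, 6 of 9 were higher in Extraembryonic Mesoderm (14.3% of all genes), 5 in Neural ectoderm (3.13%), 4 in EXMC (15.3%), 3 in Mesoderm (4.89%) and 2 in Non-neural ectoderm (5.49%), and 6 were lower in CTB (13.7%) and 2 in EVT (11.4%). MEIS1 stood at 3.19 ± 0.42 in Mesoderm and 3.04 ± 0.56 in Neural ectoderm. Over days 1 of 9 rose (MEIS3, 0.12 ± 0.03 per day) and 0 fell, beside 8.25% and 10.2% of all genes; without E16 the MEIS3 call was lost (edgeR adjusted p = 0.0694).

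Of 16 regulators of the body axis, 12 were tested over days, of which 8 fell and 1 rose, beside 10.2% and 8.25% of all genes. WNT8A fell by 0.98 ± 0.14 per day, FGF8 by 0.66 ± 0.13, CDX2 by 0.62 ± 0.12 and CDX4 by 0.59 ± 0.13. EGR2, a hindbrain segment gene, rose by 0.28 ± 0.06. Without E16, 8 were tested, 1 fell (GBX2, named after its value was seen) and 0 rose, where 4.68% of 13230 genes fell and 3.54% rose; WNT8A and FGF8 were then too low to test, CDX2 stood at 0.08 and CDX4 at 0.69 per day, and the EGR2 call was lost (edgeR adjusted p = 0.0791). In E22-1, CDX4 (3.44 ± 0.70) and CDX2 (1.33 ± 0.32) were 2 of 5 tested that were higher in Mesoderm than in Extraembryonic Mesoderm (4.67% of all genes), and WNT8A (4.70 ± 1.32) and EGR2 (1.75 ± 0.42) were 2 of 7 that were higher in Neural ectoderm than in Mesoderm (1.43% of all genes). All are edgeR calls, with adjusted p from 0.00397 to 0.0398 for the pairs. Against the other classes 15 were tested. In EXMC 1 was higher (EGR2, 1.63 ± 0.39) and 3 lower (OTX2, CDX2 and NR6A1), beside 15.3% and 8.5% of all genes. Neural ectoderm had 1 higher (EGR2, 2.64 ± 0.85, 3.13% of all genes) and 0 lower. CDX2 was the only call in Mesoderm (2.67 ± 0.53, 4.89%) and 1 of 2 higher in Non-neural ectoderm (2.12 ± 0.69, 5.49%). CTB and EVT each had NR6A1 higher (15.5% and 14.3%) and CDX2 lower (13.7% and 11.4%). Extraembryonic Mesoderm and PS and derivative had 0 calls. Over days within a class EGR2 rose in EVT (0.49 ± 0.11) and fell in Extraembryonic Mesoderm (-1.16 ± 0.28).

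Of 15 retinoic acid genes, 11 were tested in the first pair, with 1 higher and 2 lower in Mesoderm, beside 4.67% and 7.0% of all genes. CRABP1, a binding protein, was higher in Mesoderm than in Extraembryonic Mesoderm (1.71 ± 0.41), and ALDH1A3 (-7.51 ± 1.43) and STRA6, a cell surface receptor for retinol (-1.10 ± 0.18), were lower. In Neural ectoderm CRABP1 was higher than in Mesoderm (2.33 ± 0.39) and than in Non-neural ectoderm (3.95 ± 0.36). CYP26C1, which breaks retinoic acid down, was higher in Neural ectoderm than in Mesoderm (6.51 ± 1.68). DHRS3, which turns retinal back to retinol, was lower in Neural ectoderm than in either (-3.35 ± 0.94 and -4.78 ± 0.84). Of 11 tested, 2 were higher and 1 lower than in Mesoderm (1.43% and 2.3% of all genes). Against Non-neural ectoderm 1 of 11 was higher and 1 lower (1.62% and 2.14%). These pair calls are from edgeR, with adjusted p from 7.6e-08 to 0.0388. Over days 3 of 13 tested rose and 2 fell, beside 8.25% and 10.2% of all genes. Without E16, 1 of 13 rose and 0 fell, beside 3.54% and 4.68%. It was RARB, named after its value was seen (0.19 ± 0.05 per day, edgeR adjusted p = 0.0197). Against the other classes all 15 were tested. Extraembryonic Mesoderm had 7 higher and 0 lower (14.3% and 6.55% of all genes). Mesoderm had 6 and 0 (4.89% and 1.85%) and EXMC 3 and 1 (15.3% and 8.5%). Neural ectoderm had 2 and 0 (3.13% and 2.32%) and Non-neural ectoderm 1 and 0 (5.49% and 1.69%). PS and derivative had 2 and 1 (1.13% and 1.76%), CTB 1 and 8 (15.5% and 13.7%) and EVT 1 and 6 (14.3% and 11.4%). Of 14 measured Polycomb and Trithorax genes, which hold HOX genes silent or active, EZH2 (1.32 ± 0.14) and CBX2 (1.66 ± 0.32) were 2 of 12 higher in Mesoderm than in Extraembryonic Mesoderm, and 0 were lower, beside 4.67% and 7.0% of all genes. Against the other classes, with the shares of all genes just given, CTB had 3 of 14 higher (SUZ12 1.47, EED 1.30, EZH2 0.93) and 2 lower. These 3 were the lower ones in EXMC (1 higher, 3 lower) and in Extraembryonic Mesoderm (2 higher, 3 lower). EVT had 2 and 2, Mesoderm 1 and 0, Non-neural ectoderm 0 and 1, and Neural ectoderm and PS and derivative 0 calls. Over days 2 of 13 rose and 2 fell, beside 8.25% and 10.2%, and 0 passed without E16.

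The genes outside the HOX clusters whose levels over 25 fine clusters were most like the summed HOX level were ZNF618 (Spearman's rho 0.95), TCF4 (0.95), MSX1 (0.94), NES (0.94) and PLEKHO1 (0.93), among 11020 genes. This is a description over clusters that share libraries and embryos.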

How the data were processed

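The authors deposited 1 table of counts per gene and cell and an annotation of the cells. Reads were handled with cutadapt 1.15, STAR 2.6.0a and HTSeq 0.10.0, per the submitters' processing notes; no source read here states the genome build, the strand setting or whether reads or molecules were counted. CPM were computed from summed counts without TMM factors. Summed counts of each library, or of a class in a library where it had at least 10 cells (5 in the pairs within E22), were tested by quasi-likelihood with TMM factors after filterByExpr (edgeR 4.0.16, R 4.3.3), with Benjamini-Hochberg adjustment over all genes (and all pairs or all class contrasts) and a threshold of 0.05. DESeq2 1.42.0, RLE size factors, no filter, other cell minimums and leaving out libraries were alternatives. Members past the threshold (at most 10 per comparison by size) and the highest member of each cluster were to be given per library, at most 4 genes of each other list by size of change, and the 5 genes most like the HOX sum by rank correlation. Members and lists were chosen with earlier results of these data known. The edgeR code was tested on simulated data. Results of 1 member on its own are not reported here; it stays in sums and counts.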

Additional observations from a re-analysis of the deposited data

How the results depend on the processing

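Of 87 named values, 17 lost their call when some library was left out and 0 changed sign there. Without E16 the slopes of HOXA3 (0.45), HOXB9 (0.18), HOXC8 (0.035), HOXB3 (0.012) and HOXB4 (0.12) reversed and 0 members passed; 5 passed when a library code term was added and 0 with counts summed per embryo. HOXB3 lost its slope call in 21 of 42 leave-one-out fits (adjusted p up to 0.227). The cause was not tested.

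DESeq2 called 1 slope in each of EVT, EXMC and Extraembryonic Mesoderm, and 8 contrasts in Mesoderm, 3 in Neural ectoderm and 2 in PS and derivative. In the pairs it called 11 for Mesoderm against Extraembryonic Mesoderm, 8 for Mesoderm against Non-neural ectoderm and 4 for Neural against Non-neural ectoderm. Without a low count filter 4 slopes passed in CTB, 3 in EVT and 1 in EXMC, and 3 and 4 members in the last 2 pairs. Without the library as a block 1 member passed between Neural and Non-neural ectoderm. With at least 20 cells 1 slope passed in Extraembryonic Mesoderm and 7 contrasts in EXMC, and with at least 10 cells 4 members between Neural ectoderm and Mesoderm. RLE moved the median of all genes by -0.12 in CTB and by 0.13 in Neural ectoderm; of the calls over all genes 53.1% were higher in CTB with TMM and 42.6% with RLE, and 57.4% and 72.8% in Neural ectoderm. In the EVT slopes 62.0% and 72.8% were rising.

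Leaving out 1 library, counts ranged from 0 to 1 for slopes in EVT and in Extraembryonic Mesoderm, 4 to 9 for contrasts in Non-neural ectoderm and 1 to 3 in PS and derivative. They ranged from 0 to 3 for Mesoderm against Non-neural ectoderm, 3 to 7 for Neural ectoderm against Mesoderm and 1 to 3 for Neural against Non-neural ectoderm. Members apart between embryos ranged from 2 to 5 in Non-neural ectoderm (higher) and 0 to 1 in PS and derivative (lower); with at least 10 CPM in both embryos 0 were higher in Non-neural ectoderm; these alternatives were chosen after seeing the data. Leaving out 1 embryo, HOX levels ranged from 389 to 518 CPM in Blood cells, 55.7 to 333 in EPI, 457 to 797 in Mesoderm, 288 to 1007 in Neural ectoderm and 614 to 1629 in PS and derivative. EPI stood at 18.7 CPM as a mean of embryos and 236.5 without libraries 26 and 27. Without thinning, the share of cells with a HOX count was 100% in Blood cells, 54.6% in CTB, 72.2% in EPI, 55.1% in EVT, 92.7% in EXMC, 79.0% in Endoderm, 98.1% in Extraembryonic Mesoderm, 97.8% in Mesoderm, 98.3% in Neural ectoderm, 93.4% in Non-neural ectoderm, 98.2% in PS and derivative and 51.4% in STB.

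Class contrasts left out 8 libraries, 1 per day; the others were not run. Sums of at least 10 cells could not be fitted for the pairs with Non-neural ectoderm. Classes were paired through the library they share. No paired analysis was possible because of unique library numbers between days or embryos.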

Other observations

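The title and the time label of 2 libraries, 26 and 27, name different days, so they enter no test and no comparison of days; their cells are part of the pooled levels of the classes. Library 26 (55 cells) had 185.5 CPM of HOX counts, with 105.8 in HOXA, 29.5 in HOXB, 42.2 in HOXC and 8.00 in HOXD. Library 27 (94 cells) had 39.9 CPM, with 24.6 in HOXA, 2.55 in HOXB, 10.9 in HOXC and 1.97 in HOXD.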
